A study of Rattus norvegicus with 4 samples.

Results

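The genes that encode the subunits of the mitochondrial respiratory chain and the ATP synthase in the nucleus were described in rat macrophages exposed to zinc iron oxide. Members were all array probes whose accession maps to a rat RefSeq gene symbol that starts with Nduf (complex I, without the Ndufaf assembly factors), Uqcr (complex III), Cox4 to Cox8 (complex IV) or Atp5 (complex V), or that is Sdha, Sdhb, Sdhc or Sdhd (complex II). This rule used names and no measured value. It gave 80 genes read by 107 probes, out of 16526 named genes and 45598 probes with a gene spot in all. RefSeq lists 212 symbols that fit the rule, of which 110 are protein-coding and 101 are pseudogenes. Of the protein-coding ones, 79 were measured by a named probe, and the remaining member is Cox6c-ps1, a transcribed pseudogene. Another 31 protein-coding symbols had no named probe here, among them Ndufa3, Ndufa8, Ndufb1, Ndufc1, Ndufs6, Cox7a1, Cox7b2 and Atp5mc3.

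NR8383 is a macrophage line that was started from the lung lavage of a normal rat and is held by a public cell bank, and the labels give 20 passages. The particle was zinc iron oxide, ZnFe2O4, with the code NRCWE021. Its dose was 17 µg/mL and the exposure lasted 4 h, after which total RNA was labelled with Cy3 and read on 1-colour arrays. The design describes 4 biological replicates for each condition. The 4 arrays of exposed cells are the only group analysed here, so the values give presence, level and spread in exposed cells and no effect of the exposure. As a model, the line is a single cell line in culture, described as part adherent and part floating.

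Oxidative phosphorylation is the last step of respiration. Complexes I and II pass electrons from NADH and succinate to ubiquinone, complex III passes them on to cytochrome c and complex IV to oxygen, and complexes I, III and IV pump protons across the inner mitochondrial membrane. Complex V lets the protons flow back and makes ATP. Most subunits are encoded in the nucleus, and a few of complex IV exist as isoforms that are known from muscle, testis or lung. In macrophages the chain is also a source of reactive oxygen, and the balance between respiration and glycolysis shifts with activation.

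The arrays differed in background. Gene spots marked by the scanner software as well above background made up 47.0%, 89.5%, 70.5% and 41.6% of all on replicates 1 to 4, an order kept for every set of 4 values here. The dimmest of the added control RNAs (spike-ins) lay well above background on 0, 35, 34 and 0 of its 35 spots, which sets replicates 2 and 3 apart from replicates 1 and 4. Detection is therefore given for replicates 1 and 4 as well as for all 4 arrays. A further threshold required a gene to exceed the dimmest spike-in of its own array by 3 SD of that probe's spots. This threshold lay at a log2 signal of 3.18, 10.13, 8.57 and 3.07, so it was far stricter on replicates 2 and 3. The label of a macrophage line was checked against marker genes. Of 10 measured macrophage markers, 8 were well above background on replicates 1 and 4, among them Cd68, Lyz2 and Spi1, while Marco and Adgre1 were not. None of 6 epithelial, 5 T cell, 2 B cell and 4 fibroblast markers passed on both arrays.

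Nearly all members were detected. On both replicate 1 and replicate 4, 75 of 80 members were well above background, against 45.9% of all named genes. On all 4 arrays it was 74 of 80 members, against 42.4% of all named genes. The spike-in threshold was passed on all 4 arrays by 70 of 80 members, against 15.4% of all named genes. The same 70 members passed it on replicates 2 and 3, so the arrays of high background set this count. On replicates 1 and 4 it was passed by 75 members, against 51.9% of all named genes. Singly, the arrays gave 75, 79, 76 and 75 members well above background, against 52.2%, 91.5%, 75.3% and 46.2% of all named genes. In RNA from whole cultures, fewer expressing cells and less RNA per cell cannot be told apart.

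The members that were not detected fell into few places. On replicates 1 and 4 every measured subunit of the core of complex I (7 of 7), complex II (4 of 4), complex III (8 of 8), complex V (16 of 16) and the common form of complex IV (12 of 12) was well above background, as were both copies. The accessory subunits of complex I passed in 23 of 25 cases, without Ndufs4 and Ndufa10. The isoforms of complex IV that are known from particular tissues passed in 3 of 6 cases, close to the 45.9% of all named genes, and Cox8b, Cox8c and Ndufa4l2 did not. Cox8b and Ndufa4l2 were above background on replicates 2 and 3 alone, a pattern seen in 27.7% of all named genes.

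**Figure D1:**
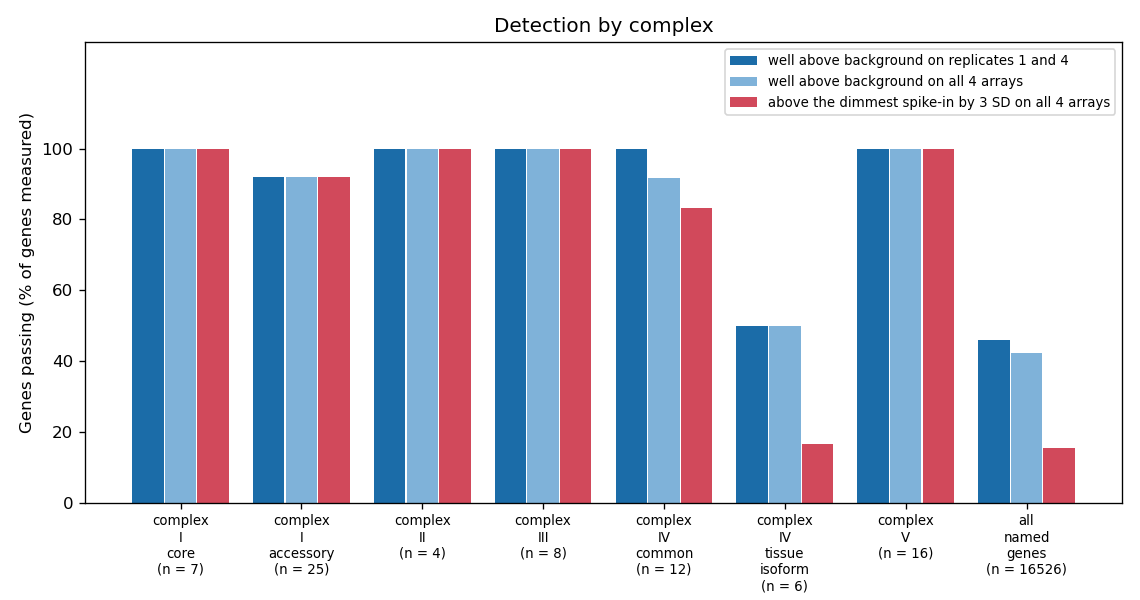
Share of genes that passed each detection rule (vertical axis, percent of genes measured) by complex, with all 16526 named genes at the right. Complexes II, III and V and the core of complex I reach 100% by each rule, while the tissue isoforms of complex IV reach 50% by the scanner flag and 16.7% by the spike-in threshold on all 4 arrays.

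Levels were taken as log2 of the processed signal minus the 75th percentile of the array over probes well above background on all 4 arrays. Each gene was represented by its brightest probe. Since probes differ in how well they bind, the level of a gene says nothing about its abundance beside another, and medians over many probes are given only to describe the signals. The brightest probe was above background on all 4 arrays for 74 members. Their median level was 2.24, and that of 6904 named genes chosen in the same way was −1.49. Of these 74 members, 68 had a mean level above 0, against 1735 of the 6904 named genes. The median SD over the 4 arrays was 0.37 for the members, against 0.43 for all named genes. Among genes with a mean level above 0 the order turned, with 0.36 for the members and 0.34 for named genes.

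**Figure D2:**
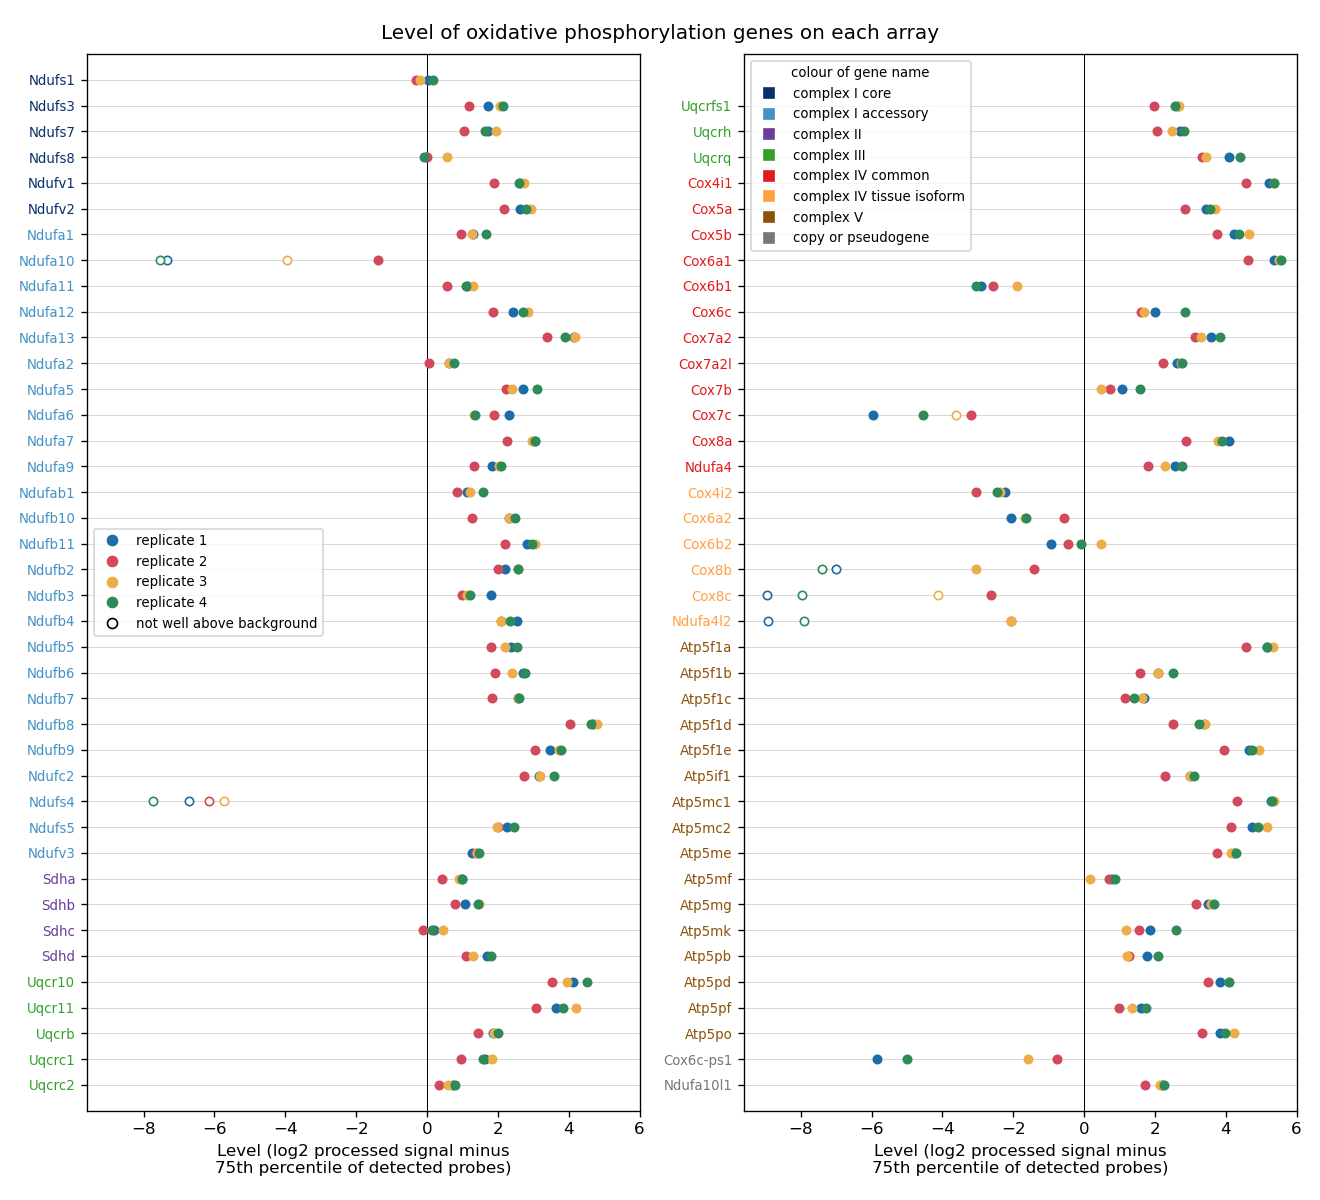
Level of the genes on each array (horizontal axis, log2 processed signal minus the 75th percentile of detected probes), with gene names coloured by complex and open circles for a probe not well above background. Most genes sit above 0 with their 4 arrays close together, and Ndufs4, Ndufa10, Cox8b, Cox8c and Ndufa4l2 have open circles on replicates 1 and 4.

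The sequence at the members' starts was set beside the measurements. Nuclear respiratory genes are known as targets of the factors NRF1, GABP (of the ETS family) and YY1, and matches to their motifs were counted in windows of 300 bases, 250 before to 50 after each RefSeq start. The letters searched on both strands were GCGCATGCG for NRF1, ACCGGAAG for ETS, AAGATGGCG for YY1, TGACGTCA for the cyclic AMP response element (CRE) and CACGTG for the E-box. No motif contains another, while the NRF1 letters can match both strands at places shifted by a single base, which count once. Windows were given for 70 of 80 members and 21851 protein-coding genes. Each member window has a single start, and the RefSeq span of some members, such as Atp5pf, Atp5me, Atp5mc2, Cox6b1 and Cox6a2, begins further upstream. The comparison set here is the 6658 protein-coding genes with a window that were well above background on replicates 1 and 4.

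At least 1 of the NRF1, ETS and YY1 motifs was found in 21 of 70 member windows (30%), against 13.1% of the windows of genes above background and 6.66% of all protein-coding windows. By motif, the members gave 6 windows (8.57%) for NRF1, against 3.71% of genes above background. They gave 7 (10%) for ETS, against 6.04%, and 9 (12.9%) for YY1, against 4.24%. In the bases before the start alone, YY1 was in 1 member window (1.43%), against 1.56%. The YY1 letters contain ATG, the bases of a start codon, and whether the matches lie at coding starts was not tested. The CRE was in 4 windows (5.71%), against 3.49%, and the E-box in 5 (7.14%), against 9.73%. All of these are small counts and are given as a description, with no test. The median GC content was 56.7% in the member windows, against 60.7% in those of genes above background, and the median number of CpG was 20, against 21.

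**Figure D3:**
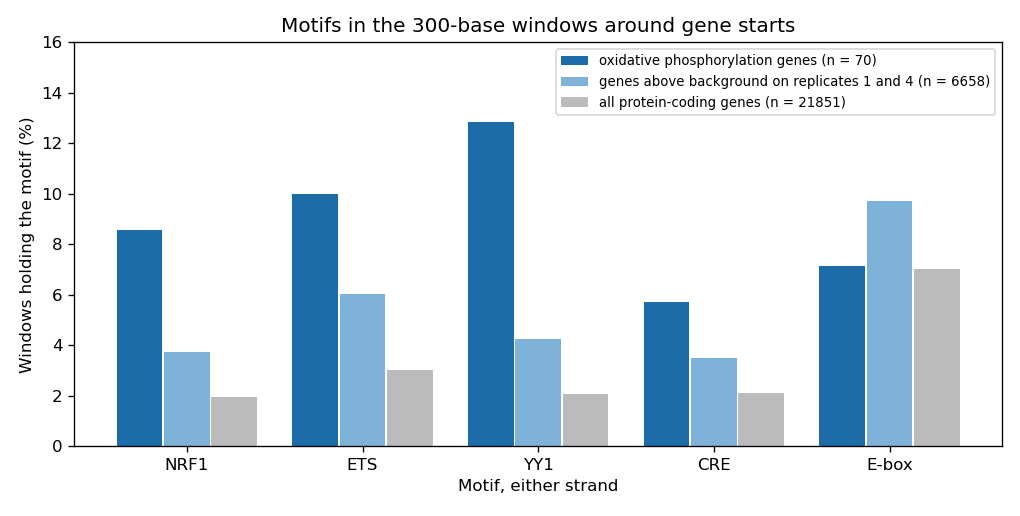
Share of 300-base start windows that hold each motif on either strand (vertical axis, percent) for 70 oxidative phosphorylation genes, 6658 protein-coding genes above background on replicates 1 and 4, and all 21851 protein-coding genes. The members stand higher than the genes above background for NRF1, ETS, YY1 and the CRE, with YY1 at 12.9% against 4.24%, and lower for the E-box. Before the start alone, which is not drawn, YY1 does not stand higher, at 1.43% against 1.56%.

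The core of complex I holds the flavin and the iron-sulfur clusters that carry electrons from NADH to ubiquinone. Ndufv1, which binds NADH and the flavin, had levels of 2.62, 1.89, 2.74 and 2.61 (mean 2.47 ± 0.39, SD, n = 4). Ndufv2, its iron-sulfur partner, had levels of 2.63, 2.17, 2.93 and 2.79 (mean 2.63 ± 0.33). For both genes replicate 2 was low and the other arrays lay close together. Ndufs1, the subunit with several iron-sulfur clusters, had levels of 0.02, −0.32, −0.21 and 0.17 (mean −0.08 ± 0.22). Ndufs3, another core subunit of the arm that faces the matrix, had levels of 1.71, 1.19, 2.05 and 2.14 (mean 1.77 ± 0.43). In both genes replicate 2 was again the lowest array. Ndufs7, which carries the last cluster before ubiquinone, had levels of 1.73, 1.03, 1.96 and 1.64 (mean 1.59 ± 0.40). Ndufs8, with a pair of clusters, had levels of −0.03, −0.00, 0.55 and −0.10 (mean 0.10 ± 0.30), and it departed from the others in that replicate 3 stood above 3 close arrays.

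The accessory subunits of complex I surround the core and take part in its assembly and stability. The 23 that were above background on all 4 arrays had mean levels between 0.52 and 4.54, and the SD ran from 0.08 for Ndufv3 to 0.55 for Ndufb10. Ndufs4 and Ndufa10 were the exceptions. Ndufs4, an accessory subunit whose loss is a known cause of complex I deficiency in man and mouse, was read by a single probe with signals of 15.8, 23.6, 15.3 and 3.91 intensity units, well above background on no array. The median gene spot stood at 13.5, 542, 133 and 7.37 units, so the probe lay above it on replicate 1 and below it on the other arrays. Ndufa10 was read by a single probe made to a predicted transcript, with signals of 10.4, 642, 51.9 and 4.54 units, above background on replicate 2 alone. Its copy Ndufa10l1 had signals of 7661, 5477, 3566 and 4037 units and was above background on all 4 arrays. Whether the probes of the copy also read the transcript of Ndufa10 was not tested, so these signals do not say which gene was expressed.

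The YY1 letters in the windows of complex I genes stood close behind the start, on the strand of the gene. Over all members the motif lay on the gene's own strand in 9 of 9 windows, and in 7 of them it began after the start. Among genes above background, 79.4% of the windows with the motif had it on the gene's strand. Since the letters contain ATG, a match may lie at the start codon of the gene, which was not tested. The matches are therefore no evidence of YY1 binding. The stretches below show it in 4 accessory and core genes that were detected and in Ndufs4, which was not. They are from RefSeq (GRCr8), 5′ to 3′ on the gene's strand, with the motif in capitals.
Ndufs7 (chr7:10110476-10110504, minus strand): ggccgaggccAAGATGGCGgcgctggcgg
Ndufa9 (chr4:161374142-161374170, minus strand): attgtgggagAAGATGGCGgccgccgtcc
Ndufa6 (chr7:115750284-115750312, minus strand): cttccttagcAAGATGGCGgccgcggcca
Ndufb8 (chr1:253362897-253362925, minus strand): ggagaaggtgAAGATGGCGgcgtcccggg
Ndufs4 (chr2:47794892-47794920, minus strand): tgcccacaggAAGATGGCGgcggtctcaa
The motif began 5 bases after the start in Ndufs7 and Ndufs4, 11 in Ndufa9, 16 in Ndufa6 and 22 in Ndufb8. Ndufa11, an accessory subunit in the membrane arm, had instead the NRF1 letters at 2 overlapping places, the nearer of which is marked here.
Ndufa11 (chr9:1637513-1637541, plus strand): ctgtgcgcatGCGCATGCGcacaggccat
Its levels were 1.12, 0.56, 1.29 and 1.09, with replicate 2 lowest.

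Complex II, succinate dehydrogenase, links the citric acid cycle to the chain, and all of its subunits are nuclear. Sdha, the flavoprotein, had levels of 1.0, 0.41, 0.91 and 0.98 (mean 0.82 ± 0.28). Sdhb, the iron-sulfur subunit, had levels of 1.08, 0.80, 1.47 and 1.44 (mean 1.20 ± 0.32). The anchors in the membrane gave levels of 0.19, −0.13, 0.46 and 0.13 for Sdhc (mean 0.17 ± 0.24) and 1.69, 1.11, 1.31 and 1.80 for Sdhd (mean 1.48 ± 0.32). Replicate 2 was the lowest array for all 4 genes, and their SD lay between 0.24 and 0.32.

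Sdha and Sdhd share their start region with a neighbour that is read the other way. Such a protein-coding neighbour within 1000 bases was found for 18 of 70 members (25.7%), against 13.5% of genes above background and 7.52% of all protein-coding genes. The starts lay 66 to 887 bases apart with a median of 155.5. Of the neighbours, 17 were measured, and 14 were above background on replicates 1 and 4, against 45.9% of all named genes. The stretch between the starts is given in full for Sdhd and Timm8b, a chaperone of protein import into mitochondria, whose starts are 96 bases apart. It is also given for Sdha and Ccdc127, whose starts are 80 bases apart. Both are from RefSeq (GRCr8) on the strand of the Sdh gene, with the ETS letters in capitals.
Sdhd (chr8:59850642-59850736, minus strand): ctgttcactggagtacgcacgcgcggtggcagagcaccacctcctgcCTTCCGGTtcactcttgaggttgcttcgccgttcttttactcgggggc
Sdha (chr1:30764474-30764552, plus strand): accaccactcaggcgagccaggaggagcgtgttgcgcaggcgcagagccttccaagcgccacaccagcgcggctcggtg
The Sdha stretch holds none of the motifs searched. Timm8b and Ccdc127 were both well above background on replicates 1 and 4.

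Complex III, the cytochrome bc1 complex, was detected in full among its measured members. Uqcrc1 and Uqcrc2, the large core proteins, had levels of 1.63, 0.96, 1.83 and 1.57 (mean 1.50 ± 0.37) and of 0.72, 0.35, 0.60 and 0.78 (mean 0.61 ± 0.19). Uqcrfs1, the Rieske iron-sulfur protein, had levels of 2.64, 1.99, 2.68 and 2.56 (mean 2.46 ± 0.32). Replicate 2 was the lowest array in each, as in all 8 members of the complex. Uqcrc1 was the only member whose window held 2 of the NRF1, ETS and YY1 motifs. They are shown as 2 stretches from RefSeq (GRCr8) with the motif in capitals, the NRF1 letters beginning 39 bases before the start and the YY1 letters 1 base before it.
Uqcrc1, NRF1 (chr8:118468174-118468202, plus strand): actccaccctGCGCATGCGtagcgcggct
Uqcrc1, YY1 (chr8:118468212-118468240, plus strand): cggaagttagAAGATGGCGgcgtccgcag

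Complex IV, cytochrome c oxidase, passes electrons from cytochrome c to oxygen, and 12 members belong to the form found in most tissues. Cox4i1, the regulatory subunit of the common form, had levels of 5.23, 4.56, 5.37 and 5.36 (mean 5.13 ± 0.39). Cox5a, which is known to bind thyroid hormone metabolites, had levels of 3.43, 2.85, 3.70 and 3.54 (mean 3.38 ± 0.37). Cox5b, which binds zinc, had levels of 4.23, 3.76, 4.67 and 4.38 (mean 4.26 ± 0.38). In these 3 genes replicate 2 was lowest and the other arrays lay close together. Cox7c, a small subunit of the same complex, had signals of 26.8, 184, 65.9 and 35.8 units. It was above background on replicates 1, 2 and 4 and not on replicate 3.

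The isoforms of complex IV were compared by detection, gene by gene, since their probes differ. Cox4i1 had signals of 62809, 39427, 33567 and 34382 units and its isoform Cox4i2, known from lung and from low oxygen, 356, 203, 156 and 154 units. Both were above background on all 4 arrays, and Cox4i2 did not pass the spike-in threshold on all of them. Cox6a1, the common form, had signals of 68173, 41351, 36802 and 39599 units, and its heart and muscle form Cox6a2 402, 1119, 255 and 271 units. Cox6a2 was above background on all 4 arrays by its brighter probe, and its other probe was not on replicate 3.

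Cox6b was the pair in which the tissue isoform alone passed the spike-in threshold on all 4 arrays. Cox6b2, known from testis, had signals of 873, 1218, 1125 and 793 units. Cox6b1, the common form, had signals of 222, 284, 220 and 101 units and was above background on all 4 arrays but did not pass the spike-in threshold on replicates 2 and 3. On replicates 1 and 4 both genes passed it, so the contrast rests on the arrays of high background. Each of the pair was read by a single probe, so the signals do not say which transcript was more abundant. Of 8 measured markers of testis germ cells, only Prm1 was above background on replicates 1 and 4, at 38.8 and 19.6 units, and none passed the spike-in threshold on all 4 arrays. The part of other cells in the Cox6b2 signal was not tested beyond these values.

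By the scanner flag, Cox8 and Ndufa4 showed the common form alone on replicates 1 and 4. Cox8a had signals of 28732, 12174, 11055 and 12504 units. Cox8b, known from heart and muscle, had 13.1, 625, 97.5 and 4.99 units, and Cox8c, known from testis, had 3.35, 273, 46.4 and 3.39 units. Cox8b was above background on replicates 2 and 3 and Cox8c on replicate 2 alone, and their higher values on replicates 2 and 3 stand where the median gene spot was at 542 and 133 units. Ndufa4, once counted to complex I and now to complex IV, had signals of 9976, 5877, 3922 and 5737 units. Its relative Ndufa4l2, known from low oxygen, had 3.45, 399, 195 and 3.48 units and was above background on replicates 2 and 3 alone. By the spike-in threshold, Cox8b passed on replicate 1 alone, and Cox8c and Ndufa4l2 passed on no array. Of 10 markers of striated muscle, Tnnt2, Actc1 and Mb were above background on replicates 1 and 4. Myh1, Myh6, Myh7, Actn2, Tnnt3, Ckm and Tnni3 were not. Actc1, at 1146, 1209, 710 and 782 units, was the only 1 to pass the spike-in threshold on all 4 arrays.

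**Figure D4:**
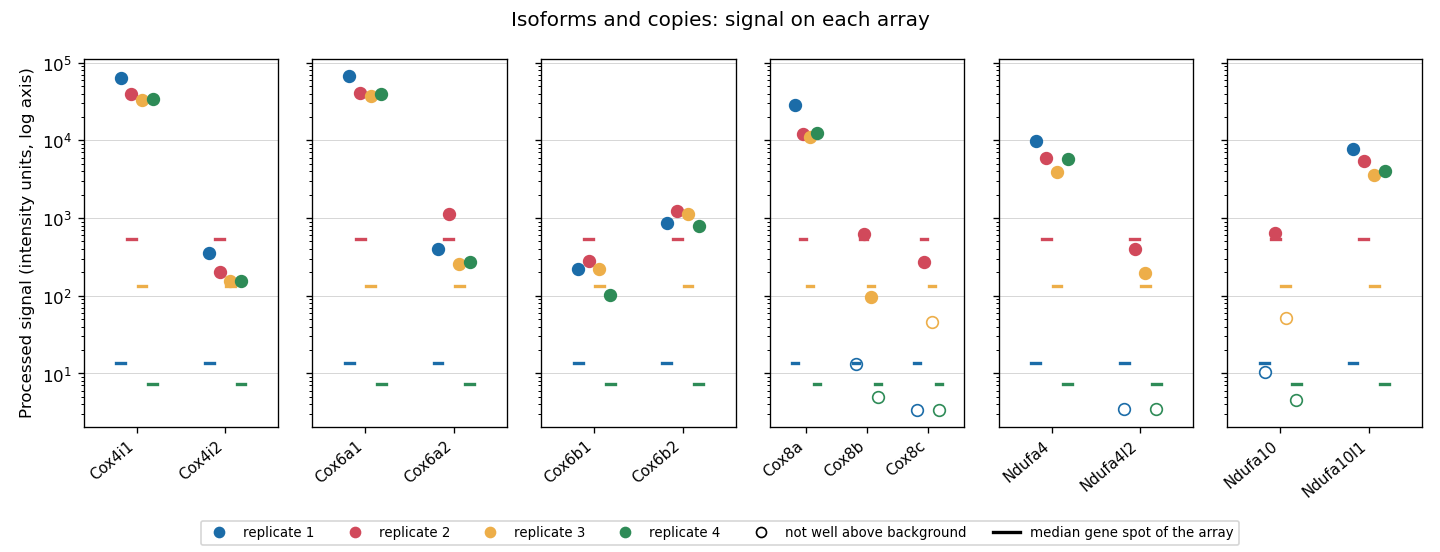
Processed signal (vertical axis, intensity units, log scale) of common and tissue forms on each array, with open circles for a probe not well above background and short lines for the median gene spot of that array. Cox8b, Cox8c, Ndufa4l2 and Ndufa10 lie near or below those lines on replicates 1 and 4, while Cox6b2 lies between 793 and 1218 units on all arrays. Heights of different genes come from different probes and are not comparable.

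The start regions of Cox8a and of 3 tissue isoforms are shown to let their sequence be read beside their detection. The 5 tissue isoforms with a window held 5 to 10 CpG (median 8), against a median of 20 over all members, and none of the 5 motifs was found in them. The common forms did not all stand higher, as Cox6b1 and Cox7b held 6 CpG each, fewer than the 10 of Cox6b2. The RefSeq spans of Cox6b1 and Cox6a2 begin upstream of their windows, so their values describe the window's start and not the end of the span. The bases before the start of Cox8a, Cox8b, Cox6b2 and Cox6a2 are printed from RefSeq (GRCr8), 150 bases each, with the CRE of Cox8a in capitals.
Cox8a (chr1:213833624-213833773, minus strand): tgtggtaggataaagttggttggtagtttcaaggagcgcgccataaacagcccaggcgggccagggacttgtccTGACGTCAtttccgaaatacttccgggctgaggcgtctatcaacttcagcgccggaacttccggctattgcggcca
Cox8b (chr1:205408274-205408423, minus strand): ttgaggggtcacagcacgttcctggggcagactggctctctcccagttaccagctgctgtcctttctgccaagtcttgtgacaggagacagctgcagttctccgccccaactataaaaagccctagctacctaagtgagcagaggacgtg
Cox6b2 (chr1:78122721-78122870, plus strand): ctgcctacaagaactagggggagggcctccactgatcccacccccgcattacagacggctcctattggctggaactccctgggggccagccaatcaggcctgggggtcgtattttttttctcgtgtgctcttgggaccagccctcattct
Cox6a2 (chr1:192219717-192219866, minus strand): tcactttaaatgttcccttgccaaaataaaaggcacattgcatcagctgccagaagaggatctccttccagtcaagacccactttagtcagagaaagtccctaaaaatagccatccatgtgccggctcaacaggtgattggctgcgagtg
That a motif was not matched says only that these letters are not in the window. Cox4i1 carried the ETS letters 2 times, beginning 4 and 24 bases after its start, and the 147 bases between its start and that of Emc8, a subunit of the membrane protein complex of the endoplasmic reticulum, held none of the motifs.
Cox4i1 (chr19:65630236-65630382, plus strand): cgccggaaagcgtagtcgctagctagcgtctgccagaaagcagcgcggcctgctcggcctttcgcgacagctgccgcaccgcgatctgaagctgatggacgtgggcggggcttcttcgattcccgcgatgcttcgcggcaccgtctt

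Among the other subunits of complex IV, Cox6c had levels of 1.99, 1.61, 1.68 and 2.85 (mean 2.03 ± 0.57), with replicate 4 high. Cox7a2, the common form of its group, had levels of 3.58, 3.12, 3.31 and 3.83 (mean 3.46 ± 0.31). Cox7a2l, a relative of Cox7a2 that is known to join complexes III and IV into supercomplexes, had levels of 2.63, 2.23, 2.75 and 2.78 (mean 2.60 ± 0.25). Cox7b had levels of 1.06, 0.72, 0.49 and 1.58 (mean 0.96 ± 0.47), and here replicate 3 was the lowest array.

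Complex V, the ATP synthase, was detected in all 16 measured members, also by the spike-in threshold on all 4 arrays. The catalytic head gave levels of 5.16, 4.58, 5.34 and 5.17 for Atp5f1a, the alpha subunit (mean 5.06 ± 0.34), and of 2.09, 1.57, 2.08 and 2.50 for Atp5f1b, the beta subunit (mean 2.06 ± 0.38). The central stalk gave levels of 1.70, 1.14, 1.64 and 1.41 for Atp5f1c (mean 1.47 ± 0.25), of 3.38, 2.50, 3.43 and 3.24 for Atp5f1d (mean 3.14 ± 0.43) and of 4.67, 3.94, 4.94 and 4.75 for Atp5f1e (mean 4.57 ± 0.44). Replicate 2 was the lowest array for these 5 genes. Atp5mc1 and Atp5mc2, separate genes for the same subunit c of the proton channel, had levels of 5.27, 4.31, 5.35 and 5.29 (mean 5.05 ± 0.50) and of 4.75, 4.14, 5.16 and 4.92 (mean 4.74 ± 0.43). Atp5if1, the inhibitor that blocks ATP hydrolysis when the proton gradient fails, had levels of 2.98, 2.29, 2.98 and 3.09 (mean 2.83 ± 0.37).

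The start windows of complex V held 4 of the 6 NRF1 matches. The stretches are shown for Atp5mc2, for Atp5me, a subunit of the membrane part, and for Atp5po, the subunit of the peripheral stalk that is known to confer oligomycin sensitivity. They are from RefSeq (GRCr8) on the gene's strand with the motif in capitals, and it begins 56, 76 and 59 bases before the start.
Atp5mc2 (chr7:135678256-135678284, minus strand): ggctctagtcGCGCATGCGcagagccttc
Atp5me (chr14:1464774-1464802, plus strand): ttgcgctacgGCGCATGCGctttcctggc
Atp5po (chr11:44657524-44657552, minus strand): acgccgacgcGCGCATGCGctctggcatc
Atp5me had levels of 4.22, 3.76, 4.16 and 4.29, and Atp5po had levels of 3.84, 3.32, 4.22 and 3.96, each lowest on replicate 2.

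Atp5pf, the coupling factor in the peripheral stalk, has as its neighbour Gabpa, which encodes the DNA-binding subunit of GABP. The starts of their windows are 163 bases apart. The RefSeq span of Atp5pf reaches beyond its window's start and past that of Gabpa, so the stretch lies within this span. The sequence between them is given in full from RefSeq (GRCr8) on the strand of Atp5pf, with the YY1 letters in capitals.
Atp5pf (chr11:37375102-37375263, minus strand): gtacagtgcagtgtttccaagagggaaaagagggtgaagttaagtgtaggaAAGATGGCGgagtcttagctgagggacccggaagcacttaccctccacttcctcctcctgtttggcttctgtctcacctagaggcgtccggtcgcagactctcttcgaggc
Atp5pf had signals of 5084, 3298, 2071 and 2824 units and Gabpa 59.4, 366, 73.1 and 43.6 units. Both were above background on all 4 arrays. The Gabpa signal was highest on replicate 2, where the median gene spot stood at 542 units, and the Atp5pf signal was lowest on replicate 3. By level, replicate 2 was the highest array for Gabpa (−2.19) and the lowest for Atp5pf (0.98). It was also the lowest array for 82.5% of named genes with a mean level above 0.

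Several probes of a gene did not always give the same answer. Of 22 members with more than a single probe, 3 had probes that disagreed on detection on replicates 1 and 4. Ndufab1, the mitochondrial acyl carrier protein, had signals of 3654, 3018, 1873 and 2512 units by its brighter probe and of 4.92, 400.1, 59.5 and 4.21 units by the other. Uqcrb, a ubiquinone-binding subunit of complex III, had 6092, 4520, 2978 and 3358 units by its brighter probe, while the other lay at 15.4, 121, 18.0 and 4.93 units and was above background on no array. Thus for Uqcrb detection rested on which probe was read. The probes of Cox6c-ps1 read 28.8, 981, 270 and 26.3 units and 9.65, 1260, 257 and 5.36 units, and only the first was above background on replicates 1 and 4. Uqcrq, a small subunit of complex III, was read at 28759, 16810, 8838 and 17609 units by its brighter probe, and its other probe, at 35.9, 212, 12.5 and 20.1 units, was not above background on replicate 3.

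RefSeq names 93 pseudogenes after 40 of the members, and reads of a probe may not separate them from the gene. Of the 40 members with such pseudogenes, 39 were above background on replicates 1 and 4, and of the 40 without, 36 were. The share of all named genes was 45.9%. The members without a pseudogene that did not pass were Ndufa10 and the tissue isoforms Cox8b, Cox8c and Ndufa4l2. The groups thus differ in more than pseudogenes. Ndufs4, the exception with a pseudogene, has 1 named after it.

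Replicates 1 and 4, the arrays of low background, ran close together. Over the 74 members with a level, the difference of replicate 4 minus replicate 1 had a median of 0.14, against 0.03 for all named genes. It was above 0 in 55 of 74 members (74.3%), against 54.6% of all named genes. Each array is a single sample, so this describes these arrays only. Neither the direction nor the contrast with all named genes held under every setting. With scaling on the 3 brightest spike-ins the median was −0.36, against −0.47 for all named genes. With normexp background correction it was 0.13, against 0.17, and with the values of the deposited table it was 0.15, against 0.13.

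The genes with the 5 largest differences in size, among members above background on both replicates 1 and 4, were named by rule. Ndufa6, an accessory subunit of complex I, had a level of 1.35 on replicate 4 and 2.31 on replicate 1, a difference of −0.96. Cox7c, which has no place among the 74 members above because of replicate 3, differed by 1.41, Cox6c-ps1 by 0.87, Cox6b2 by 0.86 and Cox6c by 0.85, all higher on replicate 4. Cox7c and Cox6c-ps1 were dim on both arrays, at 26.3 to 35.8 units, so their differences are of signals near the background. The smallest differences were those of Ndufv1 (−0.01), Atp5f1a (0.01), Sdha (−0.02), Ndufa7 (−0.02) and Atp5mc1 (0.02), genes of 3 different complexes. For all named genes the 5th percentile of the difference was −0.53 and the 95th was 0.60.

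**Figure D5:**
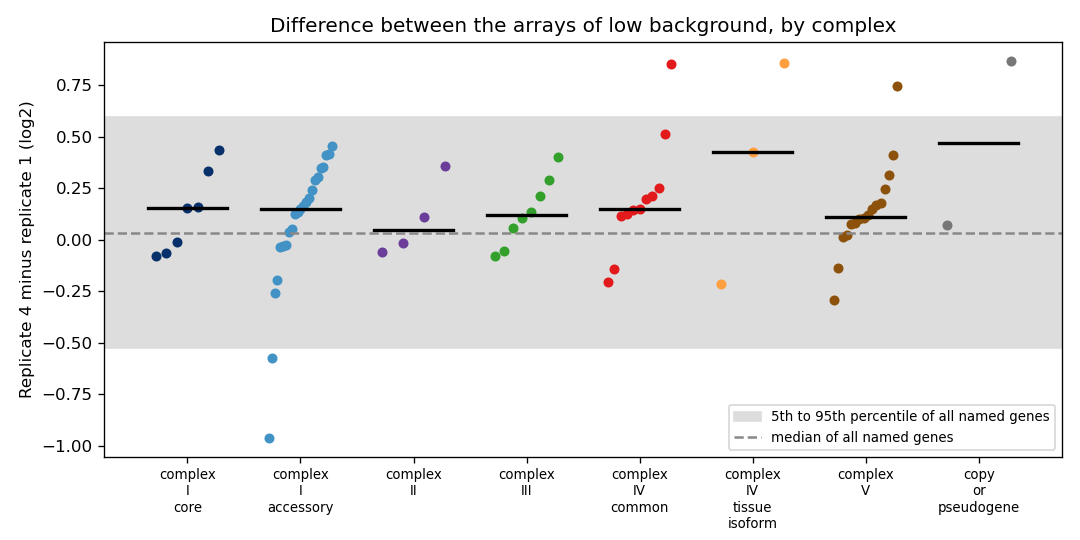
Difference in level of replicate 4 minus replicate 1 (vertical axis, log2) for each member with a level, by complex, with the class median as a black bar, the median of all named genes (0.03) as a dashed line and their 5th to 95th percentile as a grey band. Most points lie inside the band. Ndufa6 (−0.96) and Ndufb3 (−0.58) lie below it, and Cox6c-ps1 (0.87), Cox6b2 (0.86), Cox6c (0.85) and Atp5mk (0.74) lie above it.

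Replicate 2 was the lowest array for 62 of 74 members (83.8%), against 33.2% of all named genes. Among genes with a mean level above 0 the shares were 60 of 68 members (88.2%) and 82.5% of 1735 named genes, so bright genes in general had their lowest level on this array. Replicate 2 also had the highest background, with a median of 23.0 units over negative control spots, against 3.45, 12.9 and 3.34 units on replicates 1, 3 and 4. The part of the background in the low levels was not tested.

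The genes around the chain were detected in most cases. Of the assembly factors, 13 of 13 for complex I, 8 of 8 for complexes II and III, and 17 of 20 for complexes IV and V were above background on replicates 1 and 4, against 45.9% of all named genes. The exceptions were Cox11 and Cox19, which take part in copper delivery to complex IV, and Cox20, a chaperone of the Cox2 subunit. Cox17, the copper chaperone, had levels of 2.69, 2.07, 2.39 and 2.14. The spike-in threshold was passed on all 4 arrays by 5 of 13, 4 of 8 and 6 of 20 of them, against 15.4% of all named genes.

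Among electron carriers and dehydrogenases, 10 of 12 genes were above background on replicates 1 and 4, against 45.9% of all named genes, and 4 of 12 passed the spike-in threshold on all 4 arrays, against 15.4%. Cyc1, the cytochrome c1 of complex III, had levels of 3.32, 2.52, 3.46 and 3.35. Cycs, the somatic cytochrome c, had levels of 0.60, 0.19, −0.37 and 1.15, and the testis form Cyct was not above background on replicates 1 and 4, at 10.2 and 5.32 units. Prodh, proline dehydrogenase, was not either.

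Of the ADP and ATP carriers, the phosphate carrier, the porins and the uncouplers, 7 of 9 were above background on replicates 1 and 4, against 45.9% of all named genes, and 7 of 9 passed the spike-in threshold on all 4 arrays, against 15.4%. Slc25a5, a carrier that exchanges ADP for ATP, had levels of 3.19, 2.40, 2.80 and 3.24. Ucp2, the uncoupling protein known from macrophages, had levels of 0.97, 0.13, 1.39 and 0.82, while Ucp1 of brown fat and Ucp3 of muscle were not above background on replicates 1 and 4. Of 12 regulators of respiratory genes, 10 were above background on replicates 1 and 4, against 45.9% of all named genes, but only 1 passed the spike-in threshold on all 4 arrays, against 15.4%. Esrra, an orphan nuclear receptor, had levels of 0.56, −0.30, 0.43 and 0.32. Nrf1, Gabpa, Yy1 and Tfam were detected, whereas the coactivators Ppargc1a, at 3.46 and 3.32 units on replicates 1 and 4, and Ppargc1b were not above background on both.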

How the data were processed

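RNA of exposed NR8383 cells was read on 4 arrays with 1 colour (Cy3), 1 per biological replicate. Per the file headers and the submitters' processing notes, the deposited intensity values were read with Agilent Feature Extraction 11.0.1.1, and its processed signal is net of background. The authors' deposited value table equals the median spot intensity on all 62976 spots of each array. The other deposited columns used are the software's flags, read as other values of 0 or 1. Control spots and spots marked as outliers were left out (832, 946, 1109 and 868 spots), a probe's log2 value is the mean of its spots, and 213 probes without a spot were dropped. Of 45385 probes, 12899 (28.4%) were well above background on all 4 arrays, and the 75th percentile was taken over these since most probes were dim. A gene counted as above background if any probe was. No gene spot was saturated. Probes were named by accession, without version, through the RefSeq table of GRCr8, and its start windows were used. The array design names another build, so the only coordinates given are those of the printed RefSeq stretches, in GRCr8. Genes named with values were the catalytic and core subunits, the inhibitor Atp5if1, each isoform group, members not above background on replicates 1 and 4, the 5 largest and 5 smallest differences between those arrays, and members whose probes disagreed. Ndufa11, Atp5me, Atp5po and Atp5pf, given beside their sequences, Uqcrq, and the genes named from the lists of related genes were chosen after their values were seen. The members and lists were chosen with earlier results of these data known. The values of 1 member are not reported here, although it is part of the counts. With 1 group no test was run. The number of arrays limits the precision. Scaling, quantile normalization and motif matching were tested on simulated data, and the detection calls were not. Python 3.11.15, numpy 2.4.6, pandas 2.3.3, and limma 3.58.1 in R 4.3.3 (normexp with an offset of 50, on the median spot and background signals) were used. Quantile normalization was done in Python on the log2 processed signals.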

Additional observations from a re-analysis of the deposited data

Results flagged for a closer look

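In 8 of 74 members a single array stood far from the other 3, by the gap to its nearest neighbour over the whole range of the 4 levels. The same was seen in 387 of 6904 named genes (5.61%), and chance marks about 1 in 20 groups. Replicate 2 was the array apart, and lower, in 7 of these members. Its levels were 4.31 for Atp5mc1, 2.29 for Atp5if1, 2.27 for Ndufa7, 1.28 for Ndufb10, 1.83 for Ndufb7, 1.89 for Ndufv1 and 0.41 for Sdha. In Ndufs8 replicate 3 was apart, and higher, at 0.55. Replicate 2 is the array with the highest background, and its part in these values was not tested.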

How the results depend on the processing

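Over the alternatives 69 to 76 members were above background on all 4 arrays, while the share of all named genes ran from 15.4% with the spike-in threshold to 59.8% with the software's other flag. On replicates 1 and 4 it was 72 to 76 members, with 40.4% to 61.0% of all named genes. These are counts of 80, or of 78 with NM accessions only, which gave 73 and 74. Of the tissue isoforms, 3 to 4 of 6 passed on replicates 1 and 4, and 1 of 6 passed the spike-in threshold on all 4 arrays. Alternatives added after seeing the data were those for the tissue isoforms and, for replicates 1 and 4, each array alone, NM accessions only and marked spots kept. With the 75th percentile over all probes the members' median level was 5.07 and their median SD 1.89, and with scaling on the 3 brightest spike-ins the median level was −0.71 and the median difference of replicate 4 minus replicate 1 was −0.36, against 1.34 and 1.55, and −4.44 and −0.47, for all named genes. The median SD was 0.23 with quantile normalization, 0.12 on replicates 1 and 4 alone, and 0.17 to 0.42 when each replicate was left out, lowest without replicate 2. The levels of all 74 members moved by more than their SD under the first 2 scalings. These subtract another value from each array, the same for all genes, so every mean level shifted by the same amount. This shift of the zero point says nothing about single genes. The levels of 17 members moved with the mean of all probes, 5 with normexp, 4 with the deposited table, 1 with quantile normalization and 0 on leaving out a replicate. The shorter core GCATGCG of NRF1 was found in 11 member windows (15.7%), against 6.77% of those of genes above background. The core CCGGAAG of ETS was in 21 (30%), against 21.4%, the core ATGGCGG of YY1 in 15 (21.4%), against 11%, and the core TGACGT of the CRE in 9 (12.9%), against 12.7%. Before the start alone, YY1 was found in 1 window (1.43%), against 1.56% of those of genes above background, so its higher share was not seen there. NRF1 was then in 6 windows (8.57%), against 3.45%, and ETS in 6 (8.57%), against 5.23%. No paired analysis was possible because only 1 group was analysed. Signals near background on replicates 2 and 3 limit what can be said of dim genes.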
